A study of Mus musculus with 12 samples.

Results

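The LDL receptor family comprises cell surface receptors that bind lipoproteins, proteases and signalling proteins and carry them into the cell. The 10 genes described here, Lrp1, Lrp1b, Lrp2, Lrp4, Lrp8, Lrp10, Lrp11, Lrp12, Vldlr and Sorl1, were taken by name from a table of 28112 features, of which 23226 carry the name of 1 gene. All 10 were found there. The genes were selected on measured values of these data, the log2 fold changes of the 3 comparisons, which were known when the list was made, so their own changes are given below as a description and are put to no new test.

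RNA was sequenced from tumor-derived mouse small cell lung cancer lines of the genotype Trp53-/-;Rb1-/-, kept as floating spheres. Lines 16T and KP1, whose background label is Nfib high, carried an shRNA against Nfib (named sh2 in both lines), set against a control shRNA named shLuc. The line KP22, labelled Nfib low, carried a vector with Nfib cDNA, set against an empty vector. Each of these 6 groups held 2 samples, 12 in all, and every group lacked Trp53 and Rb1. The product of Nfib is a DNA-binding factor of the nuclear factor I (NFI) class, and each comparison asks which transcripts differ where Nfib is lowered or raised. Both knockdown lines carried an shRNA of the same name and each line was used for 1 kind of vector, so effects of the line and of the way Nfib was altered cannot be told apart when the knockdown lines are set beside KP22. The samples of a group are named duplicates, with no word on whether they were grown apart, so the spread between samples behind a p here may be technical.

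The values used here were the authors' log2 fold changes with their SEs, and values per sample were not used here. The depth of each library, and how many samples moved which way, are therefore unknown. In the authors' deposited table Nfib had log2 fold changes of -1.08 ± 0.035 in 16T and -1.32 ± 0.035 in KP1 with the Nfib shRNA, and of 1.80 ± 0.036 in KP22 with Nfib cDNA. Since the headings name no direction, these Nfib values set it, and they cannot also serve to check the labels. In the authors' deposited table all 9 neuroendocrine markers listed had mean normalized counts of at least 5290, with a median of 15922, against medians of 1.42 for leukocyte, 73.2 for fibroblast, 100 for endothelial and 120 for airway markers. The highest marker of those other lists was Pdgfra, the gene of a platelet-derived growth factor receptor, at a mean of 2220 in the authors' deposited table, and 1 leukocyte marker (Cd3e) and 1 airway marker (Scgb1a1) were at 0.

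Receptors of this family share extracellular cysteine-rich repeats that hold the ligand, one membrane-spanning segment and a short cytoplasmic tail with motifs for endocytic adaptors. Several also signal: Vldlr and Lrp8 receive reelin, a secreted guidance protein, and pass the signal to the adaptor Dab1, while Lrp4 receives agrin at the nerve-muscle contact. The chaperone encoded by Lrpap1 aids the folding of several members, and many members release their extracellular part by proteolysis at the cell surface.

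The sequences just before the transcription starts of Vldlr, Lrp2 and Lrp1 are shown because these 3 genes had the largest changes among members with a mean of at least 100. They come from the RefSeq promoter table of build GRCm38.p6, in which 7 of the 10 members matched a window of 250 bases before a start. The members without a window are Lrp1b, Lrp4 and Lrp12. Bases that the authors' first exon covers were left off, which shortened the Lrp2 sequence to 212 bases. Each sequence reads 5′ to 3′ on the strand of its gene. The Vldlr window lies at chr19:27216770-27217019 (plus strand), the Lrp2 window at chr2:69586068-69586279 (minus strand) and the Lrp1 window at chr10:127621149-127621398 (minus strand). Capitals mark the letters found for 2 of the motifs searched, the GC box and, in Vldlr, the C/EBP-ATF response element.
Vldlr: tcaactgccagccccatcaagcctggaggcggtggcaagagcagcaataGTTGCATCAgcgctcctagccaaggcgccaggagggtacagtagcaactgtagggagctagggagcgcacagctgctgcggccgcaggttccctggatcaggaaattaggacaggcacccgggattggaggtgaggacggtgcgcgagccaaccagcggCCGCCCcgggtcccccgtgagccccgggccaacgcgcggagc
Lrp2: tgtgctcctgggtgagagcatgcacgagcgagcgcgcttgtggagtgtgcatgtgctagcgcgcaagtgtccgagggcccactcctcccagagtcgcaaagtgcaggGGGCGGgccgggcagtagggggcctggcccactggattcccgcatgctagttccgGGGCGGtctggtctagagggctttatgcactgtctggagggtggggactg
Lrp1: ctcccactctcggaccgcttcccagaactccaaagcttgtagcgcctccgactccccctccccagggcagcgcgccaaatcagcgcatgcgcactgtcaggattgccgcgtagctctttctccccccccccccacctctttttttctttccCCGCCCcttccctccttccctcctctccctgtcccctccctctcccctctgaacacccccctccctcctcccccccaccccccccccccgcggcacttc

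A search for 5 motifs was made on both strands of the 250 bases before each start, over 32851 windows in all. The full NFI site, TTGGC followed after any 5 bases by GCCAA, was in 0.0365% of all windows and in none of the 11 windows of the members. The shorter NFI site TTGGCA, whose first letters are those of the full site, was in 12.3% of all windows, and among the members only in a window of an alternative Sorl1 start, so none of the 3 printed windows holds it. The run TTGGC by itself was not among the motifs searched. Its letters on the opposite strand, GCCAA, can be read in the printed Vldlr and Lrp1 sequences. The C/EBP-ATF element TGATGNAAN, which factors of the amino acid and stress response bind, was in 3.44% of all windows and among the members only in Vldlr, 201 bases before the start, where it reads GTTGCATCA on the strand shown. The GC box GGGCGG, the site of Sp1-type factors, was in 32.7% of all windows. It was found once each in Vldlr, Lrp1 and Sorl1, at 2 places in Lrp2 and at 3 in Lrp11. The hypoxia core ACGTG was in 16.6% of all windows and among the members in Lrp10 and Sorl1, where its matches on the opposite strands overlap in Sorl1. The printed windows were GC-rich, with 66.4% in the full Vldlr and Lrp2 windows and 67.2% in that of Lrp1, against a median of 52.4% over all windows. A match is a run of letters and not a shown binding site, and a motif that was not found says only that these letters are not in this window.

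Across the 3 comparisons the family split by gene, at the level of RNA per sample, where a change in all cells and a change in the share of cells that express a gene cannot be told apart. Vldlr, Lrp10 and Lrp11 were called higher with the Nfib shRNA in both lines and lower with Nfib cDNA, and Lrp2 was called in the reverse direction in all 3. Lrp4 and Sorl1 had the signs of Lrp2, without a call in every comparison, while Lrp1, Lrp1b and Lrp12 had neither set of signs. Lrp8 had the signs of Vldlr in its singly named exons, at 0.02 ± 0.083 in 16T without a call. Its last exon, counted apart, was called lower in 16T, at -0.21 ± 0.082 (authors' adjusted p = 0.0312). With the authors' adjusted p below 0.05 taken as a call in the authors' deposited table, 4 members were higher and 4 lower in 16T, where 45.3% of 14504 features tested were called (20.0% higher and 25.3% lower). In KP1 the authors' deposited table likewise had 4 members higher and 4 lower, against 37.2% of features called (17.6% higher and 19.6% lower). In KP22 1 member was higher and 6 were lower in the authors' deposited table, against 38.4% of 17544 features called (19.5% higher and 18.8% lower). The members were listed with these values known, so nothing is read from their counts. Their median log2 fold changes were 0.21 in 16T, -0.21 in KP1 and -0.54 in KP22, against -0.05, -0.02 and 0.04 over all features tested, from the values of the authors' deposited table. The pattern of Vldlr, Lrp10 and Lrp11 was called in all 3 comparisons for 4.76% of tested features, and that of Lrp2 for 5.33%.

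The neuroendocrine markers moved as well. Of these 9, by the authors' deposited table, 4 rose and 3 fell in 16T, and 5 rose and 4 fell in KP1. In KP22 2 rose and 6 fell. Over all features tested 45.3%, 37.2% and 38.4% were called in 16T, KP1 and KP22. The largest of these marker changes was that of Chgb in KP22, at -4.27 ± 0.059 in the authors' deposited table. Some markers of other cell types moved too. Of the 5 fibroblast markers, 3 rose in 16T (Pdgfra, Pdgfrb and Dcn), 1 fell in KP1 (Pdgfra) and 1 fell in KP22 (Pdgfrb), by the authors' deposited table. Pdgfrb, at a mean of 73.2, had 2.01 ± 0.38, 0.72 ± 0.34 and -1.21 ± 0.38 in 16T, KP1 and KP22, per the authors' deposited table, the signs of Vldlr, and Pdgfra had 0.24 ± 0.077, -0.47 ± 0.070 and -0.22 ± 0.25, the signs of Lrp1. Of the 4 endothelial markers, 3, 3 and 4 of which had an adjusted p in 16T, KP1 and KP22, only Kdr was called. Kdr fell in all 3 comparisons of the authors' deposited table (-1.48 ± 0.18, -1.62 ± 0.21 and -1.76 ± 0.16). Of the 5 airway markers, 3, 3 and 4 had an adjusted p. Only Sftpc was called, in 16T alone, where it fell (-2.07 ± 0.25). Of the 4 leukocyte markers, 1, 1 and 3 had an adjusted p in 16T, KP1 and KP22. Of these leukocyte markers 0 were called and 0 had an unadjusted Wald p below 0.05. Whether the fibroblast, endothelial, airway and leukocyte markers come from other cells or from the tumor lines was not tested. The part of these markers, or of the neuroendocrine ones, in the receptor changes was not tested either.

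**Figure D1:**
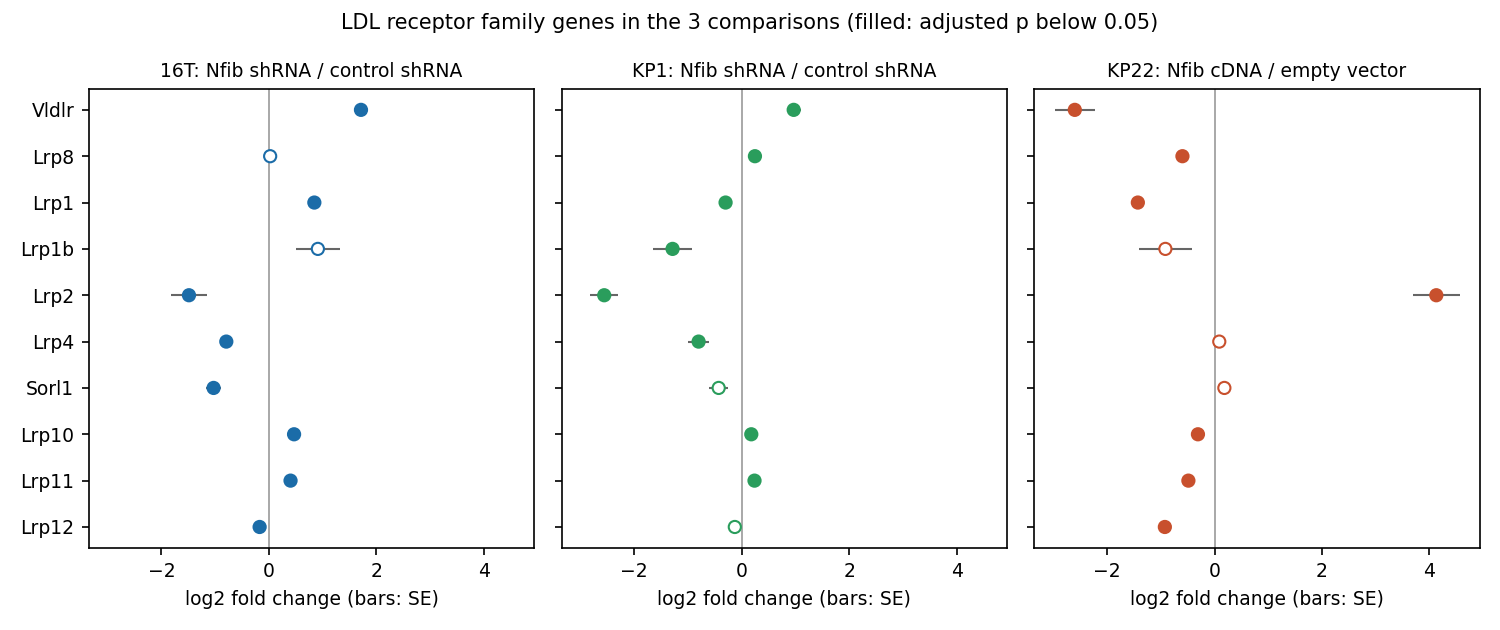
Log2 fold change of each of the 10 receptor genes (horizontal axis) in the 3 comparisons, Nfib shRNA over control shRNA in 16T and KP1 and Nfib cDNA over empty vector in KP22. Points are the deposited values, bars their SE, and filled points have an adjusted p below 0.05. Lrp2 lies far to the left in both knockdown lines and at 4.13 in KP22, and Vldlr lies on the opposite side in each panel.

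The authors also ran a stricter test, for a log2 fold change beyond 0.5 in size, which 5.25% of features passed in 16T, 4.58% in KP1 and 7.66% in KP22. Per the authors' deposited table it was passed by Lrp1, Vldlr and Sorl1 in 16T, by Vldlr and Lrp2 in KP1, and by Lrp2, Lrp1, Lrp12 and Vldlr in KP22. Vldlr was the only member to pass this stricter test in all 3 comparisons.

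Vldlr encodes the very low density lipoprotein receptor, which binds reelin and triglyceride-rich particles that carry apolipoprotein E. Its exons span chr19:27217020-27254231 (mm10, plus strand; 19 intervals of 8308 bases) and its mean normalized count over all libraries was 733. In the authors' deposited table Vldlr had log2 fold changes of 1.71 ± 0.13 in 16T (adjusted p = 1.70e-35), 0.97 ± 0.13 in KP1 (adjusted p = 3.75e-12) and -2.60 ± 0.37 in KP22 (adjusted p = 4.09e-11). Expressed as ratios of the authors' deposited table, these are 3.28-fold and 1.96-fold the control shRNA level in 16T and KP1, and 16.5% of the empty vector level in KP22. By log2 fold change Vldlr ranked 165 from the top of the 14504 features tested in 16T, 440 from the top in KP1 and 97 from the bottom of the 17544 tested in KP22. The effect was 0.75 ± 0.19 larger in 16T than in KP1, and the 2 values lie on the same side of 0.

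Lrp8 encodes ApoER2, the other reelin receptor. All but 2 of its exon intervals lie under the single name (chr4:107802259-107876840, plus strand), and those 2, each merged from several exons, were counted by the authors under joined names. In the authors' deposited table Lrp8, at a mean of 2744, had log2 fold changes of 0.02 ± 0.083 in 16T (adjusted p = 0.857), 0.25 ± 0.084 in KP1 (adjusted p = 0.0135) and -0.60 ± 0.084 in KP22 (adjusted p = 1.53e-11). Lrp8 thus fell with Nfib cDNA in KP22, as Vldlr did, but in 16T, where Vldlr rose, its interval includes 0.

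The last exon of Lrp8 (chr4:107872273-107876840) holds 4568 bases, of which 36 are coding and 4532 untranslated. In the authors' deposited table this exon, feature Lrp8;Lrp8;Lrp8 with a mean of 2219, had log2 fold changes of -0.21 ± 0.082 in 16T (adjusted p = 0.0312), 0.20 ± 0.084 in KP1 (adjusted p = 0.0516) and -0.90 ± 0.082 in KP22 (adjusted p = 2.01e-26). The last exon was therefore below the singly named exons by 0.23 in 16T, 0.05 in KP1 and 0.30 in KP22 on the log2 scale, differences that have no test because both features come from the same libraries. A short coding interval of 126 bases, feature Lrp8;Lrp8, had -0.05 ± 0.24, 0.13 ± 0.25 and -0.51 ± 0.25 in the authors' deposited table, with no adjusted p below 0.05.

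**Figure D2:**
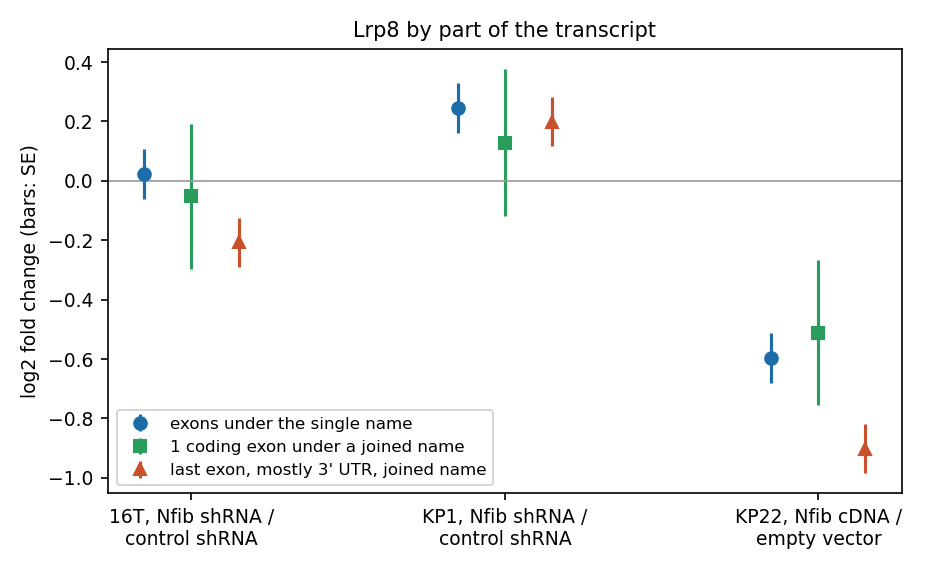
Log2 fold change (vertical axis, bars are SE) of the exons under the single name Lrp8, of 1 coding interval and of the last exon, which is mostly untranslated, in the 3 comparisons. In KP22 the last exon sits at -0.90, below the singly named exons at -0.60, and in KP1 the 3 values lie close together.

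Lrp1 and Lrp1b encode giant receptors of nearly the same build. Lrp1 takes up protease-inhibitor complexes, lipoprotein remnants and matrix proteins. Lrp1 (chr10:127538158-127621148, minus strand; 89 intervals of 14891 bases) had a mean of 2508 and log2 fold changes of 0.85 ± 0.071 in 16T (adjusted p = 2.12e-31), -0.30 ± 0.070 in KP1 (adjusted p = 0.000127) and -1.43 ± 0.12 in KP22 (adjusted p = 1.73e-31), per the authors' deposited table. Lrp1 thus rose with the Nfib shRNA in 16T, fell with the shRNA of that name in KP1, and in KP22 with Nfib cDNA was at 37.2% of its empty vector level. Calls in opposite directions in the 2 knockdown lines were made for 4.54% of tested features, and Lrp1 was the only member with them. Its effects in 16T and KP1 lay 1.15 ± 0.10 apart. Lrp1b (chr2:40596773-42653598, minus strand), at a low mean of 68.5, had 0.91 ± 0.40 in 16T (adjusted p = 0.0571), -1.29 ± 0.36 in KP1 (adjusted p = 0.00205) and -0.91 ± 0.49 in KP22 (adjusted p = 0.145), per the authors' deposited table. These signs match those of Lrp1 in each comparison, but Lrp1b was called in KP1 alone and its SEs are between 0.36 and 0.49.

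Lrp2 encodes megalin, which takes up filtered proteins and vitamin carriers at the surface of absorptive epithelia such as the kidney tubule. Lrp2 (chr2:69424335-69586067, minus strand; 79 intervals of 15467 bases) had a mean of 154. Its log2 fold changes, per the authors' deposited table, were -1.49 ± 0.34 in 16T (adjusted p = 4.79e-05), -2.56 ± 0.27 in KP1 (adjusted p = 1.93e-20) and 4.13 ± 0.43 in KP22 (adjusted p = 2.68e-20). Computed from the authors' deposited table, Lrp2 stood at 35.7% and 17.0% of the control shRNA level in 16T and KP1, and at 17.5-fold the empty vector level in KP22. It ranked 10 from the top of the 17544 features tested in KP22, and 104 and 23 from the bottom of the 14504 tested in 16T and KP1. Lrp2 was the only member that rose with Nfib cDNA. Cubn, the gene of cubilin, which acts with megalin at the membrane, had a mean of 46.7 and log2 fold changes of -0.73 ± 0.51, -1.66 ± 0.51 and -0.04 ± 0.50 in 16T, KP1 and KP22, per the authors' deposited table, with an adjusted p of 0.00515 in KP1 and of 0.26 and 0.967 in the others. Cubn was chosen for mention after its values were seen.

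**Figure D3:**
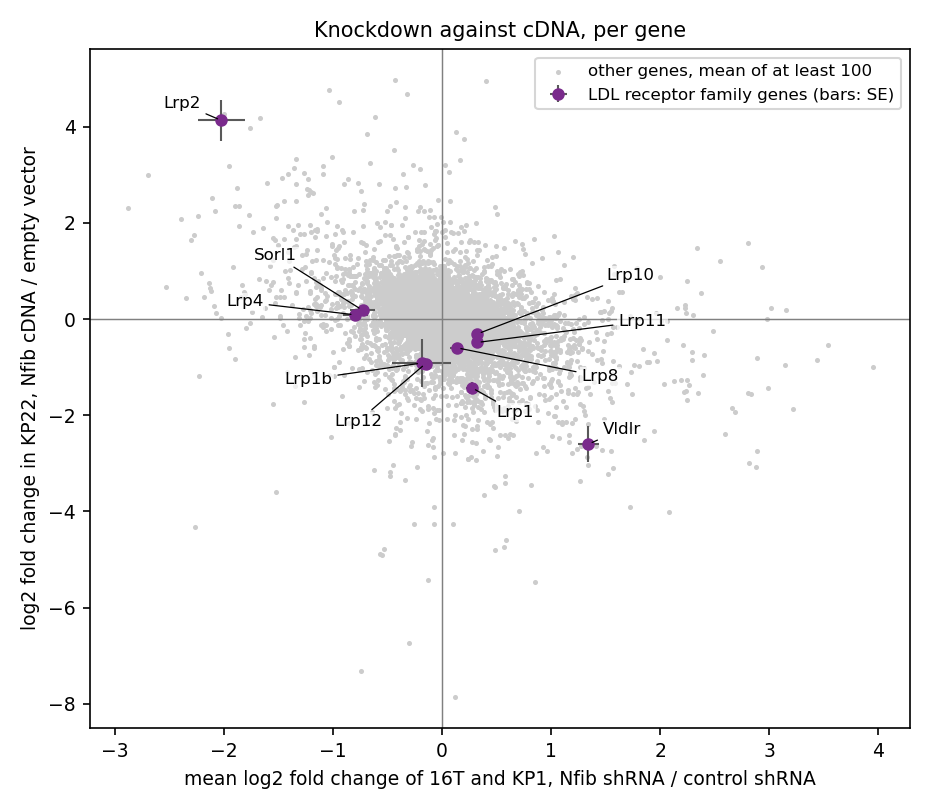
Mean log2 fold change of 16T and KP1 with the Nfib shRNA (horizontal axis) against the log2 fold change of KP22 with Nfib cDNA (vertical axis), for other genes (mean of 100 or more) in grey and the 10 receptor genes in purple (bars are SE). Lrp2 sits at the upper left, at -2.02 and 4.13, and Vldlr at the lower right, at 1.34 and -2.60. Lrp1, Lrp1b, Lrp8, Lrp10, Lrp11 and Lrp12 lie below 0 in KP22, with knockdown means between -0.19 and 0.32. The means of Lrp1 (0.27) and Lrp1b (-0.19) average values of opposite sign in 16T and KP1.

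Lrp4 encodes the agrin receptor of the nerve-muscle contact. Lrp4 (chr2:91457531-91513901, plus strand) had a mean of 980 and fell to nearly the same extent in both knockdown lines. Its log2 fold changes were -0.79 ± 0.11 in 16T (adjusted p = 6.25e-12), -0.80 ± 0.20 in KP1 (adjusted p = 0.000371) and 0.09 ± 0.11 in KP22 (adjusted p = 0.588), per the authors' deposited table. A stretch of 1767 bases at chr2:91477521-91479287, merged from 3 exons and counted as Lrp4;Lrp4;Lrp4 with a mean of 57.0, had -0.36 ± 0.41, 0.35 ± 0.46 and 0.58 ± 0.40 in the authors' deposited table, none of them called. In KP1 that stretch lies on the other side of 0 from the gene's other exons, with an interval that includes 0.

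Sorl1 encodes SorLA, a hybrid of the LDL receptor and sortilin families that routes amyloid precursor protein between the Golgi and endosomes. Sorl1 (chr9:41968489-42124289, minus strand), at a mean of 884, had log2 fold changes of -1.03 ± 0.14 in 16T (adjusted p = 1.56e-11), -0.43 ± 0.18 in KP1 (adjusted p = 0.0539) and 0.18 ± 0.11 in KP22 (adjusted p = 0.215), per the authors' deposited table. Sorl1 and Lrp4 were thus lower with the Nfib shRNA in 16T, and neither was called in KP22. Exons of Sorl1 overlap the antisense gene Gm16214 in GENCODE M21, those of Lrp10 the antisense gene Gm10366 and those of Lrp1b the short RNA gene Gm27348. The labels do not say that counting used the strand, so reads of these pairs may not be told apart.

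Lrp10, Lrp11 and Lrp12 belong to smaller, more distant relatives with few LDL receptor repeats. Lrp10, which cycles between the Golgi and endosomes, had a mean of 2212 (chr14:54464147-54470291, plus strand). Its log2 fold changes, per the authors' deposited table, were 0.47 ± 0.068 in 16T, 0.18 ± 0.068 in KP1 and -0.31 ± 0.072 in KP22. Lrp11 (chr10:7589800-7625477, plus strand), at a mean of 12566, showed 0.40 ± 0.047 in 16T, 0.24 ± 0.047 in KP1 and -0.49 ± 0.047 in KP22, per the authors' deposited table. Both genes rose with the Nfib shRNA and fell with Nfib cDNA, by less than 0.5 on the log2 scale in each comparison. The least certain of these calls in the authors' deposited table is Lrp10 in KP1, at an adjusted p of 0.0305. Lrp12 (chr15:39870603-39943757, minus strand), at a mean of 3317, had -0.17 ± 0.066 in 16T (adjusted p = 0.0249), -0.13 ± 0.066 in KP1 (adjusted p = 0.128) and -0.92 ± 0.066 in KP22 (adjusted p = 2.48e-43), per the authors' deposited table. Lrp12 fell in KP22 with Nfib cDNA while its knockdown values were also below 0. The calls of Lrp12 in 16T and of Lrp8 and Lrp10 in KP1 were lost at an adjusted p below 0.01.

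A gene that moves equally and oppositely with the shRNA and the cDNA would have 0 for the sum of its mean knockdown effect and its KP22 effect. That sum was 0.01 ± 0.087 for Lrp10 and -0.17 ± 0.058 for Lrp11. It was 2.10 ± 0.48 for Lrp2 and -1.26 ± 0.39 for Vldlr, whose KP22 effects were the larger in size, and -1.15 ± 0.13 for Lrp1 and -1.08 ± 0.081 for Lrp12. In KP22 Nfib itself stood at 3.49-fold the empty vector level in the authors' deposited table, while in 16T and KP1 it stood at 47.2% and 40.0% of the control shRNA level, so the size of the Nfib change differed too.

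Levels of different genes were set side by side per length of exon. The table's name mentions cqn, a normalization that can model length, and whether the means were adjusted for it is not stated. Among genes that averaged 100 or more, the median mean count was 1202 in the 3072 shortest genes (median 1068 bases) and 2837 in the 3072 longest (median 5644 bases), and per kb it was 1322 and 479. Among these genes the deposited means thus grow with length, though less than in proportion. The cut at a mean of 100 leaves out genes with low counts, and its part in this trend was not tested. The order of the longest members per kb depends on the division by length. Per kb of the authors' exons, Lrp11 had a mean normalized count of 3699, at the percentile 90.6 of the 12287 genes with a mean of at least 100. Lrp8 followed at 920 over its singly named exons, with Lrp12 at 816 and Lrp10 at 734 per kb, near the middle of these genes. The Lrp8 value covers 2983 bases and leaves out 4694 bases under joined names. Most of those are the last exon, 4568 bases with a mean of 2219, which holds fewer counts per base. The place of Lrp8 above Lrp12 and Lrp10 therefore depends on this choice. Lrp1 stood at 168, Lrp4 at 128, Sorl1 at 127 and Vldlr at 88.2 per kb. Lrp4 likewise lacks 1767 bases under a joined name. Lrp2 at 9.95 and Lrp1b at 4.64 per kb were the lowest of the family. Lrp11 is also the highest and Lrp1b and Lrp2 are also the lowest by the mean itself, at 12566, 68.5 and 154, while Lrp1, at 2508, ranks above Lrp10 by the mean and below it per kb. The values are means over all libraries, so the level in any single group is unknown.

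**Figure D4:**
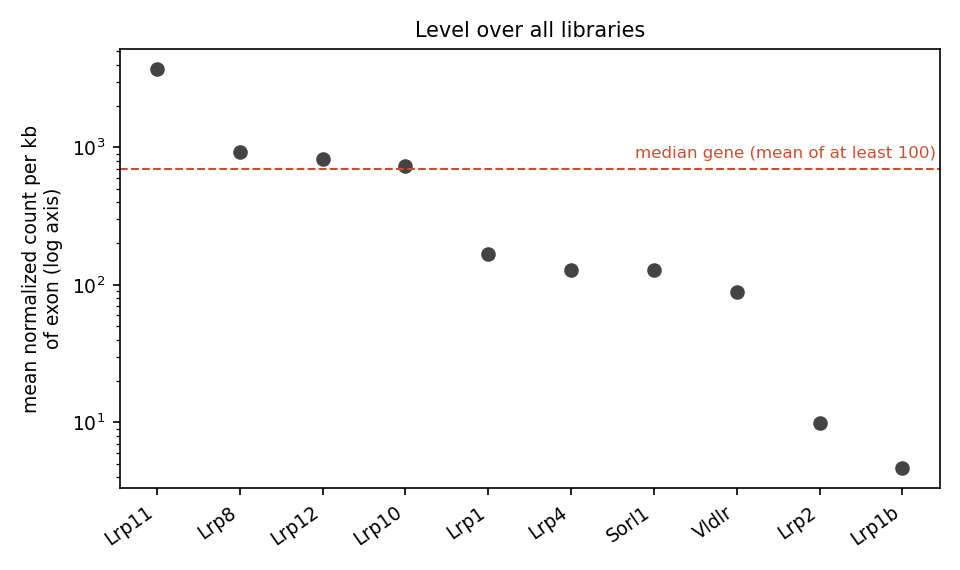
Mean normalized count per kb of exon over all libraries (vertical log axis) for each receptor gene, ordered from high to low, with the median of genes with a mean of at least 100 as a dashed line. Lrp11 at 3699 lies well above that line, and 6 of the 10 genes, from Lrp1 at 168 to Lrp1b at 4.64, lie below it. Lrp8 and Lrp4 are shown for their singly named exons only, without the intervals under joined names.

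The genes closest to the 3 most changed members were found by the Euclidean distance over the log2 fold changes of the 3 comparisons, among 12287 genes with a mean of at least 100. Nearest to Lrp2 were Necab2, a neuronal calcium-binding protein gene, at a distance of 0.175, then Pkp1, the desmosomal plakophilin 1 gene, at 0.780 and Serpina9 at 1.05. Necab2 had -1.38 ± 0.077, -2.62 ± 0.081 and 4.26 ± 0.14 in 16T, KP1 and KP22, per the authors' deposited table, so each value lies within 1 SE of that of Lrp2. Nearest to Vldlr were Pcsk2, a prohormone convertase gene, at 0.210, the monocarboxylate transporter gene Slc16a12 at 0.282 and the secretory GTPase gene Rab3b at 0.345. Pcsk2 had 1.52 ± 0.067, 1.03 ± 0.066 and -2.64 ± 0.081 in the authors' deposited table. Nearest to Lrp1 were Itm2c at 0.105, 5330417C22Rik at 0.164 and Dock6 at 0.171. Itm2c had 0.77 ± 0.066, -0.37 ± 0.065 and -1.41 ± 0.073 in the authors' deposited table.

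The nearest genes along the chromosome with a mean of at least 100 were also read. Stat6, a cytokine-activated transcription factor gene 21.8 kb from Lrp1, showed 0.70 ± 0.11 in 16T, -0.33 ± 0.11 in KP1 and -1.75 ± 0.20 in KP22, per the authors' deposited table, and all 3 were called in the directions of Lrp1. Nxph4, on the other side at 3.60 kb, showed 1.19 ± 0.26 in 16T, -1.72 ± 0.27 in KP1 and 0.94 ± 0.43 in KP22, per the authors' deposited table, the last not called. Nxph4 therefore matched Lrp1 in direction in the knockdown lines and lay on the opposite side of 0 in KP22. Around Lrp2, Bbs5 at 61.2 kb and Spc25 at 219 kb had values between 0.00 and 0.39 in the 3 comparisons of the authors' deposited table, with calls for Spc25 in KP1 (0.28 ± 0.060) and Bbs5 in KP22 (0.39 ± 0.14). Neither gene was below 0 in a knockdown line, where Lrp2 was. Beside Vldlr, D19Bwg1357e at 134 kb had -0.42 ± 0.063, -0.36 ± 0.064 and 0.57 ± 0.063 in the authors' deposited table, each called and opposite to Vldlr. Smarca2, a chromatin remodeller gene 439 kb away on the other side of Vldlr, had 0.18 ± 0.18, 0.26 ± 0.18 and -1.32 ± 0.42 in the authors' deposited table, of which only the KP22 value was called.

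The receptors' wider pathway was read from 7 lists with 75 genes, chosen with earlier results of these data known. Every list count of none given for rises or falls was also 0 at the authors' unadjusted Wald p below 0.05. In 16T 23 of 65 genes with an adjusted p rose and 9 fell, in KP1 16 of 65 rose and 18 fell, and in KP22 11 of 70 rose and 23 fell, by the authors' deposited table. The shares over all features tested were 20.0% higher and 25.3% lower for 16T. For KP1 17.6% were higher and 19.6% lower, and for KP22 the shares were 19.5% and 18.8%. The counts of the lists below, most of them of under 10 genes, are to be read against these shares. Many lie near them, and some, such as the rises of adaptors and kinases in 16T, lie above. The medians of the pathway genes were 0.07, 0.00 and -0.04 in 16T, KP1 and KP22, against -0.05, -0.02 and 0.04 over all features tested, from values in the authors' deposited table.

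Among 7 tested relatives of the LDL receptor outside the members, 3 rose and 2 fell in 16T, none rose and 4 fell in KP1, and 3 rose and none fell in KP22, by the authors' deposited table. Lrp5, a Wnt co-receptor gene, showed -0.12 ± 0.062 in 16T, -0.81 ± 0.060 in KP1 and 0.63 ± 0.060 in KP22, per the authors' deposited table, the last 2 called. Lrp3 had -0.23 ± 0.074, -0.31 ± 0.075 and 0.35 ± 0.075 in the authors' deposited table, each called, and Ldlrad4 rose in 16T with 0.70 ± 0.12. Of the sortilin relatives of Sorl1, Sort1 had 0.34 ± 0.043, 0.31 ± 0.043 and -0.43 ± 0.044, each called, and Sorcs2 had -0.97 ± 0.072 in 16T and -0.77 ± 0.075 in KP1, both called, and -0.01 ± 0.072 in KP22, per the authors' deposited table.

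All 3 chaperones fell in KP22 with Nfib cDNA and none was called in KP1, by the authors' deposited table. Lrpap1, whose product escorts family members through the endoplasmic reticulum, had -0.95 ± 0.071 in KP22 (adjusted p = 2.19e-39), -0.02 ± 0.068 in 16T and 0.06 ± 0.068 in KP1 in the authors' deposited table. Hsp90b1, the gene of an endoplasmic reticulum chaperone, showed 0.37 ± 0.038 in 16T, 0.02 ± 0.038 in KP1 and -0.23 ± 0.038 in KP22, per the authors' deposited table, called in 16T and KP22. The fall of Mesdc2, the chaperone gene of Lrp5 and Lrp6, was smaller, at -0.21 ± 0.082 in KP22, per the authors' deposited table.

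Of the ligands and partners, 6 of 18 tested rose and 2 fell in 16T, 6 rose and 5 fell in KP1, and 2 of 21 rose and 6 fell in KP22, by the authors' deposited table. Sepp1, the gene of selenoprotein P, a selenium carrier taken up by megalin and ApoER2, rose most: 2.84 ± 0.13 in 16T and 3.14 ± 0.13 in KP1, with -1.43 ± 0.21 in KP22, in the authors' deposited table. Thbs1, the gene of the matrix protein thrombospondin 1, an Lrp1 ligand, had 2.18 ± 0.070, 0.95 ± 0.065 and -3.09 ± 0.092 in the authors' deposited table. Lipg, the endothelial lipase gene, had -1.38 ± 0.33, -1.09 ± 0.29 and 1.44 ± 0.21 in the authors' deposited table. These 3 ligand genes were called in all 3 comparisons, in opposite directions with the shRNA and with the cDNA.

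The 3 further ligands named here were chosen for mention after their values were seen. Reln, the gene of reelin, had wide errors in the authors' deposited table, with -0.59 ± 0.51 in 16T, -1.06 ± 0.51 in KP1 and 0.13 ± 0.51 in KP22 and no call. Apoe, the apolipoprotein E gene, showed 1.24 ± 0.10 in 16T, -0.42 ± 0.10 in KP1 and 0.51 ± 0.11 in KP22, per the authors' deposited table, the same signs as Lrp1 in the knockdown lines and the opposite sign in KP22. App, the amyloid precursor gene whose product Sorl1 sorts, had 1.09 ± 0.044, 0.18 ± 0.044 and -0.89 ± 0.045 in the authors' deposited table, against -1.03 ± 0.14, -0.43 ± 0.18 and 0.18 ± 0.11 for Sorl1.

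Of 18 tested adaptors and kinases, 8 rose and 2 fell in 16T, 7 rose and 2 fell in KP1, and 4 rose and 8 fell in KP22, by the authors' deposited table. Dab1, the cytoplasmic partner of Vldlr and Lrp8 in reelin signalling, rose in all 3 comparisons of the authors' deposited table, with 1.13 ± 0.11, 0.88 ± 0.099 and 0.43 ± 0.092. Dok7, which acts with Lrp4 and its kinase at the nerve-muscle contact, had 0.29 ± 0.083, 1.42 ± 0.085 and -0.34 ± 0.085 in the authors' deposited table. Numbl, an endocytic adaptor gene, fell by 1.21 ± 0.10 in KP22 and was not called in 16T or KP1, per the authors' deposited table. Mylip, the gene of the ubiquitin ligase that degrades Vldlr and Lrp8 proteins, was chosen for mention after its values were seen, and had 0.48 ± 0.14, -1.12 ± 0.13 and 1.01 ± 0.13 in the authors' deposited table, each called.

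**Figure D5:**
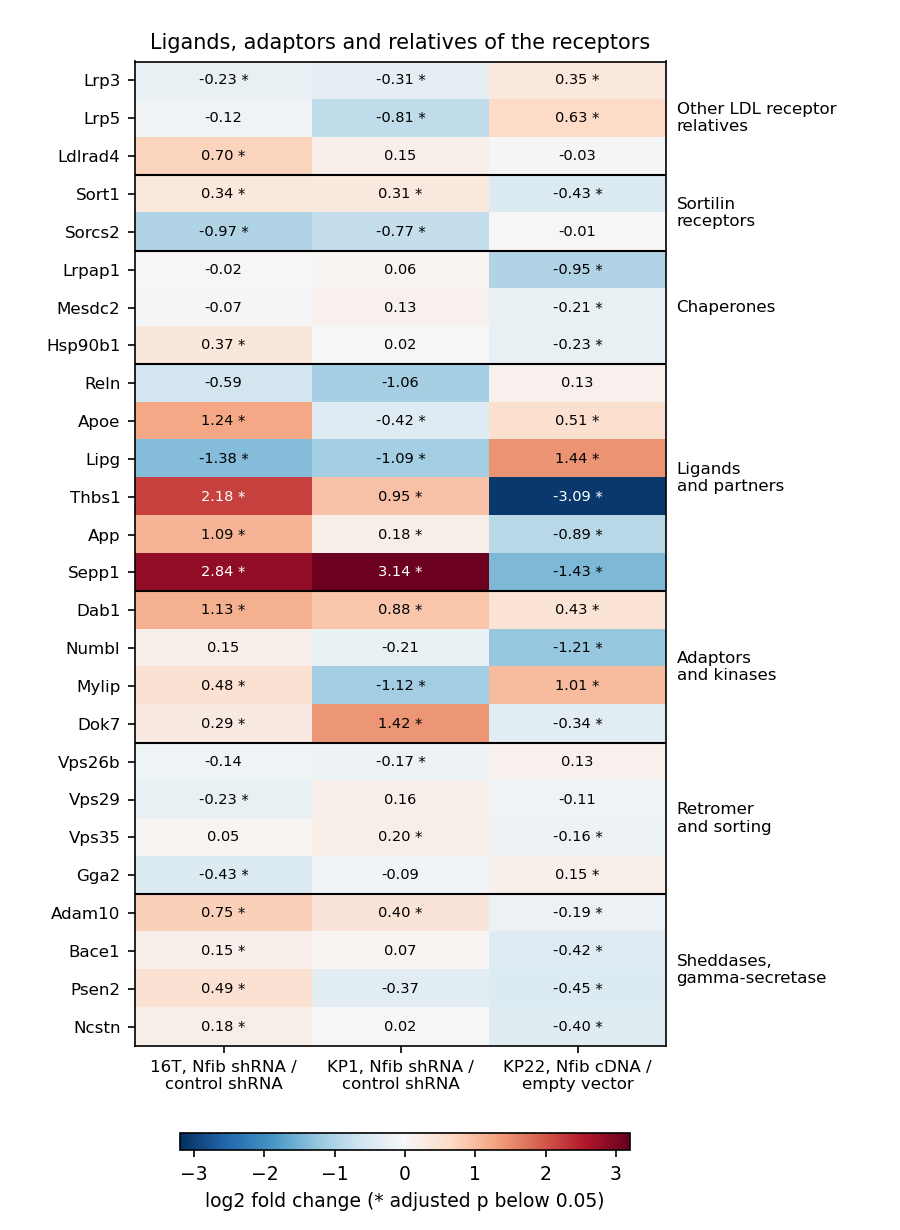
Log2 fold change (colour and number) of the named relatives, chaperones, ligands, adaptors, sorting proteins and proteases in the 3 comparisons, with an asterisk where the adjusted p is below 0.05. Sepp1 and Thbs1 are above 0 in both knockdown lines and below 0 in KP22, while Apoe and Mylip are above 0 in 16T, below 0 in KP1 and above 0 in KP22.

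The retromer and Golgi sorting genes, which recycle Sorl1 and other receptors, had small changes. Of 8 tested, none rose and 2 fell in 16T, 1 rose and 2 fell in KP1, and 2 rose and 1 fell in KP22, by the authors' deposited table. The retromer gene Vps35 had 0.20 ± 0.044 in KP1 and -0.16 ± 0.045 in KP22, Vps29 had -0.23 ± 0.088 in 16T and Vps26b had -0.17 ± 0.069 in KP1 in the authors' deposited table, and Gga2, a Golgi adaptor gene, had -0.43 ± 0.052 in 16T. Of 8 tested proteases that cut receptors of this family, 4 rose and none fell in 16T, 1 rose and 3 fell in KP1, and of 9 tested in KP22 none rose and 4 fell, by the authors' deposited table. In either direction these counts are near the 45.3%, 37.2% and 38.4% of all features called in 16T, KP1 and KP22. Adam10, a cell surface sheddase gene, showed 0.75 ± 0.046 in 16T, 0.40 ± 0.046 in KP1 and -0.19 ± 0.047 in KP22, per the authors' deposited table, each called. The genes Bace1, Psen2 and Ncstn of the other cleavage enzymes had -0.42 ± 0.057, -0.45 ± 0.17 and -0.40 ± 0.056 in KP22, per the authors' deposited table, each called.

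For these pathway genes, which did not define the receptors, the 16T and KP1 effects were compared by a z test of their difference with SEs added as independent and Benjamini-Hochberg adjustment over 15008 genes, of which 29.4% passed. It was passed by 23 of 65 pathway genes, 17 with the higher value in 16T and 6 with the lower. Among them were Thbs1 at 1.24 ± 0.096 and Dok7 at -1.12 ± 0.12, with adjusted p from this z test of 4.92e-36 and 2.30e-19. The genes named in this paragraph were picked for large called changes in these same comparisons. Their adjusted p therefore describe them and are no separate support. The sum of the mean knockdown effect and the KP22 effect differed from 0 by the same kind of test for 26 of 65 pathway genes, 10 above 0 and 16 below, against 36.7% of all 15008 genes. It was 1.44 ± 0.12 for Dab1 and 1.56 ± 0.23 for Sepp1, and -1.52 ± 0.10 for Thbs1 and -0.93 ± 0.086 for Lrpap1, with adjusted p from this z test of 4.52e-33, 7.08e-11, 1.26e-46 and 7.41e-26. Nfib itself changed by -1.08, -1.32 and 1.80 in 16T, KP1 and KP22, in the authors' deposited table. A gene whose change follows that of Nfib in size thus need not have a sum of 0. The test cannot tell such a gene from one that failed to move oppositely. Thbs1 and Sepp1 moved oppositely with the shRNA and the cDNA.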

How the data were processed

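Total RNA was purified with Qiagen reagents and sequencing libraries used Illumina TruSeq chemistry, per the labels' protocols. TopHat, bedtools, DESeq, DESeq2 and the mouse build mm10 are named per the submitters' processing notes, and the sources used here do not give their versions. The authors deposited 1 mean normalized count per feature, a signal averaged over the libraries, and for every comparison a log2 fold change and SE. Their table further holds a score (log2 fold change over SE), p-values and adjusted p-values, per the file headers, once for a change from 0 and once for a change beyond 0.5 in size. The lowest mean of a feature with an adjusted p was 15.7 in 16T and KP1 and 0.926 in KP22, and all 10 receptor genes had one in each comparison. A Benjamini-Hochberg adjustment of the deposited p-values differed from the deposited adjusted ones by at most 1.50e-12. SEs of low-count features are small for their counts, as after shrinkage of log2 fold changes towards 0, which would understate changes of Lrp2 and Lrp1b.

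A deposited list of 211975 exon intervals gave positions and lengths, and GENCODE M21 gave strand and overlapping genes. Depth per library is unknown here, and precision is that of the authors' SEs. The design had allowed for values per sample; since the table holds results only, the authors' own tests were used. Differences between comparisons were computed from deposited effects and SEs, for genes with 1 name and means of 10 or more. The comparisons share no samples. The mean is the same under each heading, so the SEs may rest on a spread estimated over all libraries. Adding SEs as independent, as in the differences and z tests above, is therefore an assumption. The computations used Python 3.11.15, numpy 2.4.6, pandas 2.3.3 and scipy 1.17.1. The computation was tested on simulated data. The receptor genes and all lists were chosen with earlier results of these data known. Named pathway genes were up to 4 per list with the largest log2 fold change among those with an adjusted p below 0.05 and a mean of at least 50, and some genes counted in the lists are not reported here. The alternatives tried were the authors' test against 0.5, an adjusted p below 0.01, a t distribution with 6 degrees of freedom, recentring on the median gene, other filters on the mean and, for Lrp4 and Lrp8, adding the joined features.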

Additional observations from a re-analysis of the deposited data

Results flagged for a closer look

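By rule 25 pathway genes were named, of which some are not reported here. For 10 of those reported, the z test found that the log2 fold changes of 16T and KP1, both Nfib shRNA over control shRNA, differed. Benjamini-Hochberg adjustment was over 15008 genes, of which 29.4% passed. The rule takes genes with large called changes in these same comparisons, so nothing is read from the count of 10. The value in 16T was above that in KP1 by 0.68 for Lrp5, 0.55 for Ldlrad4, 0.35 for Hsp90b1, 1.24 for Thbs1, 0.37 for Numbl, 0.35 for Adam10 and 0.86 for Psen2. It was below that in KP1 for Dok7 (-1.12), Vps29 (-0.39) and Gga2 (-0.34). Thbs1, Adam10 and Dok7 were called in the same direction in both lines and differed in size.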

How the results depend on the processing

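With the authors' test for a log2 fold change beyond 0.5 in size, receptor genes called higher and lower numbered 2 and 1 in 16T (main 4 and 4), 1 and 1 in KP1 (4 and 4) and 1 and 3 in KP22 (1 and 6), and pathway genes 8 and 1 in 16T (23 and 9), 6 and 4 in KP1 (16 and 18) and 2 and 10 in KP22 (11 and 23). At an adjusted p below 0.01, as with a t distribution with 6 degrees of freedom, 2 receptor genes were called higher in KP1, where Lrp8 and Lrp10 lost their calls, and Lrp12 lost its call in 16T. With the t distribution Lrp1b also lost its call in KP1, 15 pathway genes were higher in 16T, 10 were lower in KP1, and 14 (main 23) differed between 16T and KP1. Recentring on the median gene (-0.05 in 16T, -0.01 in KP1, 0.04 in KP22) gave Lrp1b a call in 16T and ended that of Lrp12. Adding joined features moved Lrp8 to -0.09 in 16T and -0.74 in KP22. In the other 40 counts and 34 single values recomputed, the counts stayed within 1.5 times and the values within 1 SE. The cause of these shifts was not tested. No paired analysis was possible because the table used holds 1 result per comparison and no values per sample, and for the same reason leaving out replicates was not run. Low means limit Lrp1b and Lrp2, whose SEs are between 0.27 and 0.49.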
